A study of Mus musculus with 16 samples.

Results

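Messenger RNA of 40 mouse genes that copy DNA in S phase, out of 29695 genes in the count table, was followed in the aorta segment above the kidneys. The genes were chosen by symbol from their known roles in origin licensing, at the replication fork, in nucleotide supply, in chromatin renewal and in entry into S phase, and all 40 were found. Earlier results of these data were known when the genes were chosen. Mice were male and either C57BL/6 wild type (WT) or Vamp8-/- (KO), a knockout of the gene for a vesicle fusion protein. For 5 days an osmotic pump under the skin released either saline or 1000 ng/kg/min of angiotensin II (AngII), a peptide hormone that raises blood pressure. Each of the 4 groups, WT saline, WT AngII, KO saline and KO AngII, held 4 libraries that the labels call biological replicates. The submitters left out vessels with blood in the wall or other visible disease, so the AngII groups stand for aortae without such damage. The sources used here do not give age.

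DNA replication starts when the origin recognition complex, CDC6 and CDT1 load a ring of MCM proteins onto DNA before S phase. Cyclin-dependent and DBF4-dependent kinases then turn the ring, with CDC45 and GINS, into an active helicase, behind which polymerases copy each strand from deoxynucleotides made by ribonucleotide reductase and the thymidine enzymes. Many of these genes are held silent in resting cells by RB proteins and are switched on by E2F factors late in G1, and the adult artery wall is mostly resting smooth muscle, fibroblasts and endothelium.

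Library totals ran from 13284804 to 21643548 reads, and the 40 genes together took 3844 to 6692 reads in a library, so single genes rest on few reads. Smooth muscle markers were present in every library, at a summed 5609 to 20967 CPM (reads scaled to a common library size with edgeR's trimmed mean of M values). Vamp8 was at 45.9 to 60.9 CPM in the 8 WT libraries and at 14.1 to 31.4 CPM in 7 of the 8 KO libraries. The library labelled KO saline replicate 1 had 53.3 CPM, inside the WT range, and some results on KO saline are also given without it. KO AngII replicate 4 stood apart by its neuronal and chromaffin markers, which summed to 3644 CPM against 26.8 to 252 CPM in the other libraries. KO saline replicate 3 had skeletal muscle markers at a summed 613 CPM against 6.25 to 43.8 CPM elsewhere. KO AngII replicate 3 had erythroid markers at 17576 CPM against 1142 to 5641 CPM, and lymphocyte markers at 52.2 CPM against 1.72 to 16.8 CPM. All 2725 genes that lack a symbol in the table had 0 reads across the 8 WT libraries, and no other gene did. The sources used here do not say whether both genotypes were counted in the same way, so counting cannot be told apart from genotype in any KO against WT difference.

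Promoter windows are shown first because E2F factors are known to act at such sites and because the members differed in the letters found there. RefSeq windows of 300 bases, from 250 before to 50 after a start on GRCm38.p6, were matched for 33 of the 40 genes. The letters TTTCCCGC, TTTGGCGC, TTTGCCGC or TTTCGCGC, on either strand and with overlaps counted, stood in 15 of the 33 genes (45.5%), against 2.60% of all 27025 genes in the table. In the 200 bases nearest the start the shares were 42.4% and 1.91%. CCAAT, on either strand, was found in 57.6% of the members and 41.1% of all genes, and TTTGAA, the CHR letters, in 15.2% and 20.2%. Below, capitals mark the E2F letters, and the windows run 5′ to 3′ in the gene's own direction. Cdc6 and Rrm2 are shown as the members called under AngII, Mcm5 and Mcm6 as ring subunits with overlapping matches, and Pola2 as the member called between genotypes.
Cdc6 promoter, chr11:98907901-98908200 (+ strand): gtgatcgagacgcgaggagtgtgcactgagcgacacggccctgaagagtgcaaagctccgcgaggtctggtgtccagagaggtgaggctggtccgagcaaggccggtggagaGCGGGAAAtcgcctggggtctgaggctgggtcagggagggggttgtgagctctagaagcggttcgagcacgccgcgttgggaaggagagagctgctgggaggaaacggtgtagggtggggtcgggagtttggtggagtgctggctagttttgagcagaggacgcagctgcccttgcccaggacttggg
Rrm2 promoter, chr12:24708004-24708303 (+ strand): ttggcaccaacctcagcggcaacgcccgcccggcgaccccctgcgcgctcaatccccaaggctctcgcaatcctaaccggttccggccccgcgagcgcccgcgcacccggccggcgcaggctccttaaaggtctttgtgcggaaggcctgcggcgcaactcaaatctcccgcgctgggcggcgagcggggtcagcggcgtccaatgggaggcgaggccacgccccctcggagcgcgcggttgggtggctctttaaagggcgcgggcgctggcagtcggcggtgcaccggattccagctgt
Mcm5 promoter, chr8:75109259-75109558 (+ strand): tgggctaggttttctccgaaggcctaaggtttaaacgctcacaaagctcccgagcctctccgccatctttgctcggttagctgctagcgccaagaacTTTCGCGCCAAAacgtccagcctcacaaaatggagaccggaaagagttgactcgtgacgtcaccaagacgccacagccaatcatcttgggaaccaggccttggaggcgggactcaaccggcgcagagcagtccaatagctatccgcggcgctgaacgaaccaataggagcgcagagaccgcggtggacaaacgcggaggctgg
Mcm6 promoter, chr1:128359656-128359955 (- strand): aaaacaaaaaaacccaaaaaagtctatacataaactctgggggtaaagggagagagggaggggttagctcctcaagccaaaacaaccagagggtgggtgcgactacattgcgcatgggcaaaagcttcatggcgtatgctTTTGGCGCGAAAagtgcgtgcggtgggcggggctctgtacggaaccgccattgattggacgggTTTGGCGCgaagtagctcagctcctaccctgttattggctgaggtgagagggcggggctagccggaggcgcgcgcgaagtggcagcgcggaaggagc
Pola2 promoter, chr19:5964157-5964456 (- strand): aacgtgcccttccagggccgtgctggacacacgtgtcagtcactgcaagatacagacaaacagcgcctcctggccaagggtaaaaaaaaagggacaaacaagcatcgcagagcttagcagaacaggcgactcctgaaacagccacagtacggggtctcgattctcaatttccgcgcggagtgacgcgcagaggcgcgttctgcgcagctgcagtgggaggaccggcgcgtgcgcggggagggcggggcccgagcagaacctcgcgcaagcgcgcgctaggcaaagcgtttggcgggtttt
Cdc6 held 1 match, 138 bases before its start, Mcm5 held 2 that share letters, and Mcm6 held 3, of which 2 share letters. The Rrm2 and Pola2 windows held none, and Rrm2 had the larger rise of the called members under AngII. Among tested WT values, 14 members with the letters had a median log2 fold change of 0.45 (from -0.10 to 1.52) and 17 without them 0.44 (from -0.16 to 1.93), which overlap over most of their range. A match is a description of letters, not of a bound factor. Prim2, Mcm4, Pole, Gins1, Ccne2, Rfc2 and Gins2 had no matched window, so their letters were not read.

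In WT aortae the replication genes stood higher after AngII, by a moderate amount and unevenly between roles. Of 38 members that passed the low-count filter, 34 had a positive log2 fold change, with a median of 0.47 against -0.01 over all 15984 genes tested. Cdc6 and Rrm2 were called higher by edgeR's quasi-likelihood test at an adjusted p under 0.05, which is 5.26% of the 38 against 0.438% of all genes, and no member was called lower. At an unadjusted p under 0.05, 16 members were higher (42.1% against 5.58% of all genes) and 0 were lower. For 14 members (36.8%), every AngII library lay above every saline library, against 3.67% of all genes. The mean of the members' log2(CPM + 0.5) was 2.10 to 2.26 in the WT saline libraries and 2.44, 2.50, 3.03 and 2.76 in WT AngII replicates 1 to 4. The groups did not overlap on that scale, and replicates 3 and 4 were the highest.

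**Figure D1:**
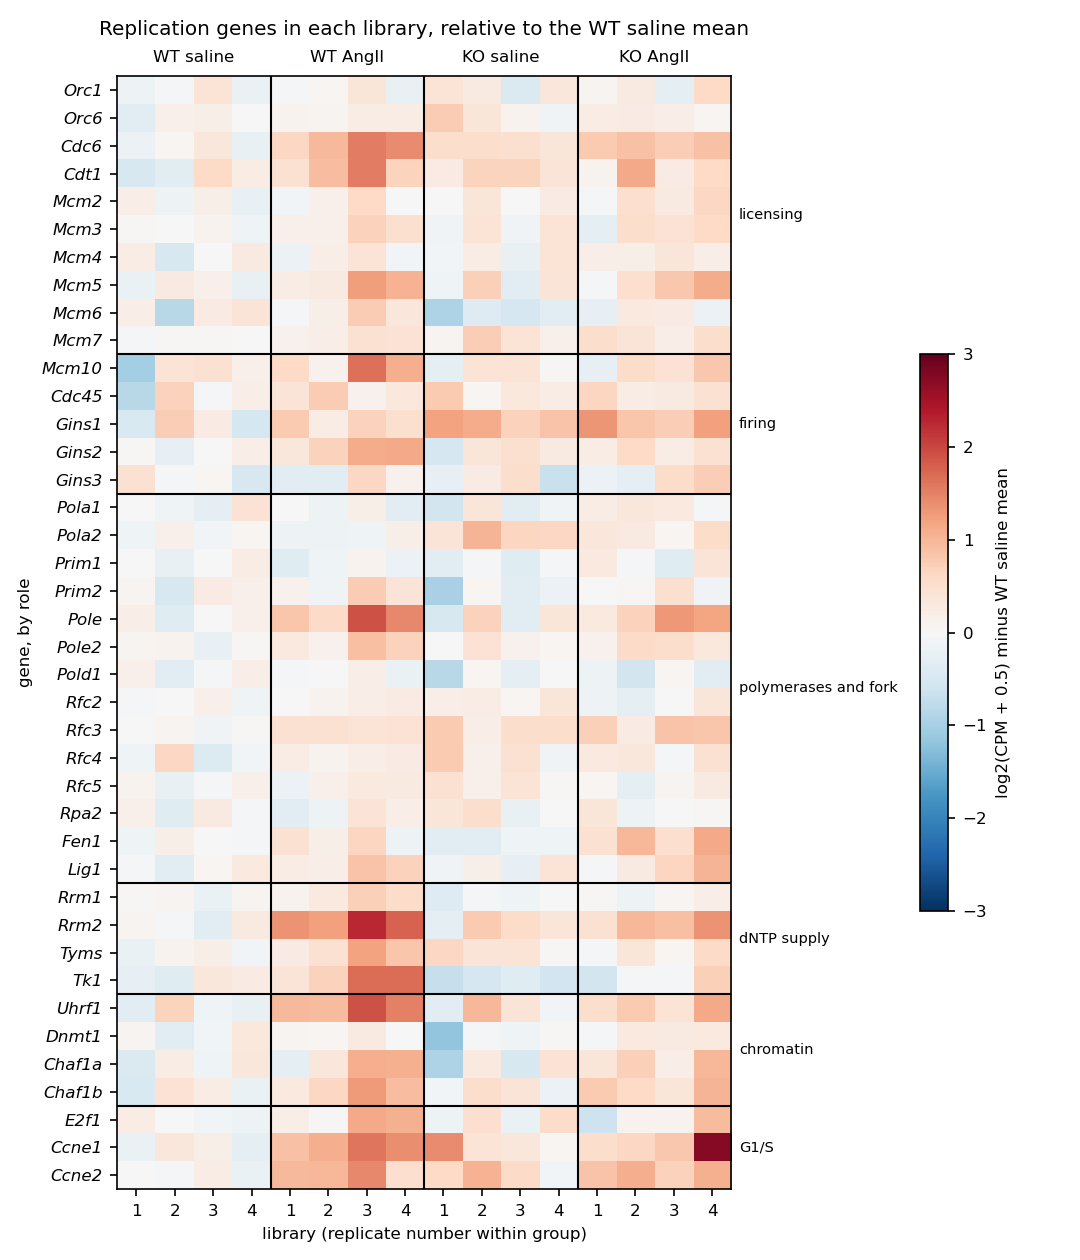
Level of the 40 genes in each of 16 libraries. Colour is log2(CPM + 0.5) minus the gene's WT saline mean, columns are libraries by group and replicate number, and rows are genes by role. WT AngII replicates 3 and 4 are red over most rows, Pola1, Pold1 and Rpa2 stay pale there, and Ccne1 in KO AngII replicate 4 is the darkest cell.

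Among licensing genes, which load the helicase ring, Cdc6 was the one called in WT. CDC6 is the ATPase that joins the origin complex to receive the ring. In WT, Cdc6 (ENSMUSG00000017499) was at 0.813, 1.04, 1.36 and 0.768 CPM under saline and at 1.79, 2.41, 3.81 and 3.45 CPM under AngII, in replicates 1 to 4. Every AngII library was above every saline library, with means of 0.995 ± 0.269 and 2.86 ± 0.933 CPM (SD, n = 4). The log2 fold change was 1.52 (SE 0.28, edgeR quasi-likelihood adjusted p = 0.0310), a 2.86-fold rise on 12 to 58 reads per library. In KO, Cdc6 was at 1.61, 1.61, 1.55 and 1.40 CPM under saline and at 2.03, 2.21, 1.97 and 2.23 CPM under AngII. These groups did not overlap either, but the difference of 0.45 (SE 0.28) was not called (edgeR quasi-likelihood adjusted p = 0.371). KO saline was already above every WT saline library, by 0.63 (SE 0.28, edgeR adjusted p = 0.212). The WT call was lost without any of the WT saline libraries (adjusted p 0.0632 to 0.133), without WT AngII replicate 3 (0.138) or 4 (0.128) and without KO AngII replicate 2 (0.0539). It was also lost with no filter on low counts (0.0886) and with the WT groups fitted alone (0.157), where Rrm2 was still called.

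The ring subunits had smaller WT differences than Cdc6. MCM2 to MCM7 form the core of the helicase. Mcm5 was at 4.27, 6.13, 5.66 and 4.25 CPM in WT saline and at 5.97, 6.15, 12.7 and 10.8 CPM in WT AngII. Replicates 3 and 4 were high and replicate 1 lay within the saline range, for a log2 difference of 0.81 (SE 0.33, edgeR adjusted p = 0.442). In KO, Mcm5 was at 4.52, 8.53, 3.94 and 6.73 CPM under saline and at 4.83, 7.33, 9.24 and 11.4 CPM under AngII, which overlap. The WT means under saline and AngII were 7.71 ± 1.24 and 8.81 ± 2.08 CPM for Mcm2, 9.27 ± 0.651 and 12.2 ± 2.40 CPM for Mcm3, and 13.7 ± 3.11 and 14.6 ± 2.84 CPM for Mcm4. Mcm6 had 39.6 ± 12.8 and 47.8 ± 12.2 CPM and Mcm7 12 ± 0.347 and 14.9 ± 1.69 CPM (all SD, n = 4). Only Mcm3 and Mcm7 kept their WT groups apart among these 6, and none of the 6 was called (edgeR adjusted p 0.442 or more). In KO the means were 8.58 ± 1.21 and 9.93 ± 1.98 CPM for Mcm2, 10.5 ± 2.24 and 12 ± 3.02 CPM for Mcm3, and 14.6 ± 3.00 and 15.9 ± 1.04 CPM for Mcm4. Mcm6 had 26.1 ± 4.62 and 38.8 ± 7.57 CPM, with every KO AngII library above every KO saline library (0.57, SE 0.25, edgeR adjusted p = 0.237), and Mcm7 had 15.6 ± 3.36 and 16.1 ± 1.67 CPM.

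Per kb of median transcript length (GENCODE M21), the ring genes did not stand at equal levels in WT saline. Mcm6 had 22.6 ± 7.31 CPM per kb and Mcm4 20.9 ± 4.72, which lay within each other's spread. Mcm7 followed at 14.7 ± 0.428, then Mcm2 at 11.8 ± 1.90 and Mcm3 at 10.3 ± 0.723, which were again within their spread. Mcm5 was lowest at 1.95 ± 0.370 CPM per kb (SD, n = 4). Per kb of the longest transcript, Mcm6 (9.09) was still highest and Mcm5 (1.5) lowest. Mcm7 (4.04) then passed Mcm4 (3.83), and Mcm3 (2.70) passed Mcm2 (2.21). The median transcript was 0.658 kb for Mcm4 and 2.604 kb for Mcm5, against longest ones of 3.589 and 3.381 kb. The inner order, the closeness of Mcm4 to Mcm6 and the size of the gap to Mcm5 thus depend on the transcript taken.

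Cdt1, the partner of CDC6 in loading, was at 1.81 ± 0.812 CPM under WT saline and 3.80 ± 1.51 CPM in WT AngII, with overlap (1.06, SE 0.37, edgeR adjusted p = 0.354). Orc6, a subunit of the origin recognition complex, had small differences of opposite sign in WT (0.15, SE 0.17) and KO (-0.15, SE 0.17). It was at 9.56, 13.3, 13.5 and 11.8 CPM in WT saline and at 12.8, 12.6, 14 and 14 CPM in WT AngII. In KO it was at 20.7, 15.6, 12.9 and 11.1 CPM under saline and at 14, 14.2, 13.9 and 12.4 CPM under AngII. The highest value came from the library labelled KO saline replicate 1, and without it the KO difference was 0.053. Averaged over WT and KO, the log2 AngII effect on Orc6 was 0.00 (SE 0.12). Orc1, the ATPase subunit of the same complex, failed the filter with 2 to 14 reads per library, and its group means of 0.376 to 0.495 CPM allow no comparison.

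Firing factors, which turn the loaded ring into a moving helicase, had a median WT log2 fold change of 0.63. EdgeR called none of the 5, 1 of them (Gins2) was higher at an unadjusted p under 0.05, and DESeq2 called Gins2. Gins2, a subunit of GINS, was at 2.10, 1.63, 2.00 and 2.41 CPM in WT saline and at 2.68, 3.54, 4.94 and 5.06 CPM in WT AngII. The groups did not overlap (0.99, SE 0.29, edgeR adjusted p = 0.219). In KO, Gins2 was at 1.29, 2.77, 3.02 and 2.53 CPM under saline and at 2.45, 3.29, 2.46 and 2.97 CPM under AngII, which overlap. Mcm10, a helicase activator, was at 0, 0.848, 0.885 and 0.615 CPM in WT saline and at 1.03, 0.602, 2.67 and 1.67 CPM in WT AngII, on 0 to 40 reads. Its KO values were 0.323, 0.845, 0.843 and 0.533 CPM under saline and 0.350, 0.983, 0.875 and 1.26 CPM under AngII. At this depth its WT difference of 1.33 had an SE of 0.68. Gins3 was at 3.19, 2.09, 2.30 and 1.43 CPM in WT saline and at 1.65, 1.60, 3.61 and 2.44 CPM in WT AngII. Its KO values were 1.74, 2.69, 3.37 and 1.20 CPM under saline and 1.89, 1.67, 3.44 and 3.99 CPM under AngII, with no separation in either genotype. Cdc45 and Gins1, which complete the helicase, had WT differences of 0.36 (SE 0.31) and 0.63 (SE 0.38).

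Polymerase and fork genes had the smallest median WT log2 fold change of the 6 roles, 0.14 over 13 tested members. EdgeR called 0 of them and DESeq2 called Pole. Unadjusted p was under 0.05 for Pole, Pole2 and Rfc3 in WT, all higher, and their WT groups did not overlap. Pole, the catalytic subunit of the leading-strand polymerase epsilon, was at 1.02, 0.522, 0.826 and 0.973 CPM in WT saline and at 1.85, 1.47, 4.48 and 3.09 CPM in WT AngII. In KO it was at 0.452, 1.61, 0.562 and 1.20 CPM under saline and at 1.12, 1.62, 2.73 and 2.51 CPM under AngII, with overlap. The differences were 1.70 (SE 0.47, edgeR adjusted p = 0.176) in WT and 1.06 (SE 0.46, adjusted p = 0.236) in KO. Lig1, the ligase that joins lagging-strand fragments, was at 6.51, 5.35, 7.02 and 8.35 CPM in WT saline and at 7.90, 7.82, 12.5 and 11.1 CPM in WT AngII. Its KO values were 6.20, 7.68, 5.55 and 9.12 CPM under saline and 6.51, 8.21, 10.9 and 14.2 CPM under AngII. The differences were 0.53 (SE 0.25) in WT and 0.48 (SE 0.25) in KO, where it was 0.249 without KO AngII replicate 4, and neither was called. Pold1, the catalytic subunit of polymerase delta, was at 13.1, 9.33, 11.6 and 13.6 CPM in WT saline and 11.2, 11.8, 13.6 and 10.2 CPM in WT AngII. Its KO values were 6.39, 12.4, 9.49 and 11.7 CPM under saline and 10.6, 7.87, 12.3 and 9.13 CPM under AngII. The groups overlapped in both genotypes (-0.02, SE 0.21, in WT).

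The primase and polymerase alpha genes, which start each new strand, did not separate the WT groups. Pola1 differed by -0.10 (SE 0.22), Pola2 by -0.06 (SE 0.16) and Prim1 by -0.16 (SE 0.20), while Prim2 differed by 0.33 (SE 0.27). Pole2, the accessory subunit of polymerase epsilon, went from 1.19 ± 0.168 to 1.95 ± 0.605 CPM (0.71, SE 0.28). Of the clamp loader, Rfc3 went from 3.29 ± 0.219 to 4.63 ± 0.0891 CPM (0.49, SE 0.19, edgeR adjusted p = 0.436), while Rfc2, Rfc4 and Rfc5 had differences of 0.14 to 0.16. Rpa2, which coats single-stranded DNA, differed by 0.05 (SE 0.22). Fen1, which trims lagging-strand flaps, had 0 to 15 reads per library and failed the filter. Its annotated exons overlap Tmem258 on the other strand, and the sources used here do not give the strand setting of the counting, so its low count says little about the gene. Exons of Orc6, Mcm7, Cdc45, Gins2, Rfc2, Rfc4, Rfc5, Lig1, Tk1, Chaf1a and Ccne2 also overlap a protein-coding gene on the other strand. Those of Pole2 overlap Gm49384, a protein-coding gene on the same strand. The part of such overlaps in the values of all these genes was not tested.

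Deoxynucleotide supply was the role in which every member kept the WT groups apart. All 4 genes had AngII libraries above all saline libraries and an unadjusted p under 0.05, with a median log2 fold change of 1.04, and Rrm2 was called. RRM2 is the small, cell-cycle controlled subunit of ribonucleotide reductase. In WT, Rrm2 (ENSMUSG00000020649) was at 2.10, 1.89, 1.47 and 2.46 CPM under saline and at 5.77, 5.28, 11.4 and 7.91 CPM under AngII. The lowest AngII library was above the highest saline library, with means of 1.98 ± 0.411 and 7.58 ± 2.77 CPM (SD, n = 4). The log2 fold change was 1.93 (SE 0.33, edgeR quasi-likelihood adjusted p = 0.0205), a 3.81-fold rise. In KO, Rrm2 was at 1.55, 3.76, 3.09 and 2.66 CPM under saline and at 2.87, 4.43, 4.10 and 5.71 CPM under AngII. These groups overlapped, and the difference of 0.63 (SE 0.32) was not called (edgeR adjusted p = 0.289). The WT call was lost without any of the WT saline libraries (adjusted p 0.0560 to 0.0939) and without WT AngII replicate 3 (0.0855) or 4 (0.0866). Rrm1, the large subunit of the same enzyme, was at 24.1 ± 2.20 CPM under WT saline and 32.6 ± 5.98 CPM in WT AngII, so the subunits differed in size of change, 0.44 (SE 0.14) for Rrm1 and 1.93 for Rrm2.

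Tk1, the thymidine salvage kinase, was at 3.25, 2.94, 5.13 and 4.76 CPM in WT saline and at 5.29, 6.68, 13.6 and 13.6 CPM in WT AngII. The WT difference was 1.28 (SE 0.35, edgeR adjusted p = 0.167), and DESeq2 called it (adjusted p = 0.0256). In KO, Tk1 was at 2.26, 2.61, 2.95 and 2.46 CPM under saline and at 2.52, 3.79, 3.77 and 6.73 CPM under AngII, an overlap of replicate 1 with the saline range. Tyms, which makes thymidylate, was at 3.80, 4.83, 5.07 and 4.15 CPM in WT saline and at 5.36, 6.28, 11.0 and 8.33 CPM in WT AngII (0.79, SE 0.24, edgeR adjusted p = 0.251). Its KO values did not follow, at 7.04, 5.92, 6.04 and 4.59 CPM under saline and 4.27, 5.80, 4.65 and 6.85 CPM under AngII (-0.13, SE 0.24). A pseudogene copy, Tyms-ps, is annotated, so the Tyms reads carry some uncertainty.

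**Figure D2:**
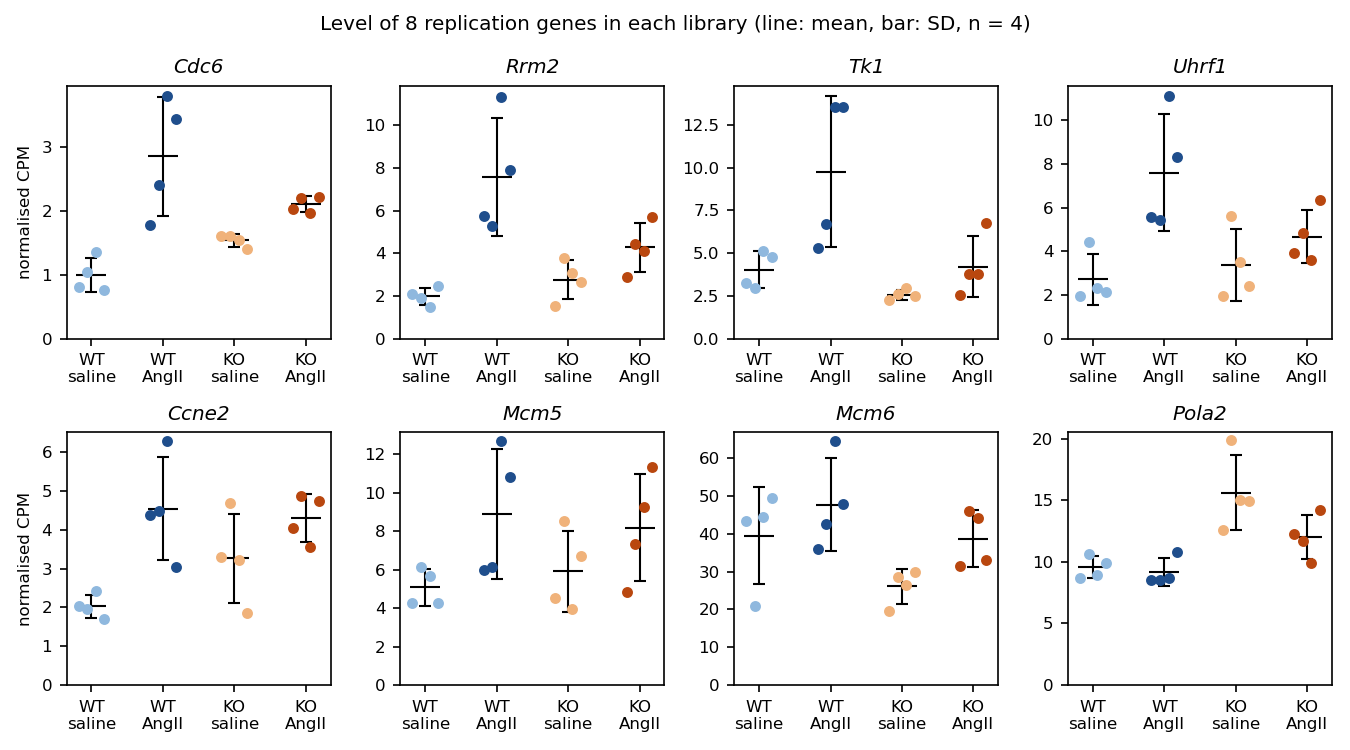
Normalised CPM of 8 genes in each library, by group, with points for libraries, a line for the mean and a bar for the SD (n = 4). Rrm2 and Cdc6 in WT AngII lie above all WT saline points, while Mcm6 overlaps in WT, and Pola2 in KO saline lies above every WT saline point.

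Chromatin genes that follow the fork had a median WT log2 fold change of 0.88 over 4 members. EdgeR called 0, Uhrf1 and Chaf1b had an unadjusted p under 0.05, and DESeq2 and limma voom each called Uhrf1. Uhrf1, which guides DNA methylation to the new strand, was at 1.97, 4.44, 2.30 and 2.15 CPM in WT saline and at 5.56, 5.41, 11.1 and 8.33 CPM in WT AngII. The groups did not overlap (1.49, SE 0.37, edgeR adjusted p = 0.126). In KO, Uhrf1 was at 1.94, 5.61, 3.51 and 2.40 CPM under saline and at 3.92, 4.82, 3.61 and 6.33 CPM under AngII, with overlap. Chaf1b, a subunit of the histone chaperone CAF-1, was at 0.678, 1.70, 1.42 and 0.922 CPM in WT saline and at 1.51, 2.01, 3.47 and 2.62 CPM in WT AngII. In KO it was at 1.03, 1.84, 1.62 and 0.932 CPM under saline and at 2.31, 1.97, 1.59 and 2.80 CPM under AngII. Its differences of 1.02 (SE 0.36) in WT and 0.67 (SE 0.36) in KO had the same sign, as did those of its partner Chaf1a at 0.74 (SE 0.42) and 0.80 (SE 0.42). Dnmt1, the maintenance DNA methyltransferase, had overlapping groups in WT. It was at 28.5, 21.5, 25.1 and 33.2 CPM in WT saline and at 28.3, 27.7, 32.2 and 26.5 CPM in WT AngII (0.08, SE 0.21). In KO it was at 11.4, 25.4, 24.2 and 27.2 CPM under saline and at 26.1, 32.8, 32.5 and 32.8 CPM under AngII (0.49, SE 0.21, edgeR adjusted p = 0.236). The lowest value came from the library labelled KO saline replicate 1, and without it the KO difference was 0.284.

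Among the genes that control entry into S phase, the E-type cyclins, partners of CDK2, separated the WT groups and E2f1 did not. Ccne2 was at 2.03, 1.96, 2.42 and 1.69 CPM in WT saline and at 4.39, 4.48, 6.28 and 3.03 CPM in WT AngII (1.16, SE 0.29, edgeR adjusted p = 0.115). DESeq2 called Ccne2 in WT (adjusted p = 0.00794). In KO it was at 3.29, 4.69, 3.23 and 1.86 CPM under saline and at 4.06, 4.87, 3.55 and 4.74 CPM under AngII. Ccne1 was at 0.475, 0.913, 0.767 and 0.410 CPM in WT saline and at 1.58, 1.87, 2.94 and 2.44 CPM in WT AngII (1.78, SE 0.61, edgeR adjusted p = 0.343). In WT, Ccne1 was called by limma voom (adjusted p = 0.0365). It was also called by edgeR (adjusted p = 0.0315) with KO AngII replicate 4 and the library labelled KO saline replicate 1 both left out. Its KO values were 2.52, 0.999, 0.914 and 0.666 CPM under saline and 1.12, 1.23, 1.48 and 6.96 CPM under AngII. A single library, KO AngII replicate 4, held the KO difference of 1.07 (SE 0.59), which was -0.01 without it and 1.63 without the library labelled KO saline replicate 1. E2f1, the activating factor, was at 5.69, 4.76, 4.48 and 4.25 CPM in WT saline and at 5.56, 4.88, 11.2 and 10.6 CPM in WT AngII. Replicates 1 and 2 stayed in the saline range while 3 and 4 were above it (0.75, SE 0.36, edgeR adjusted p = 0.578). In KO, E2f1 was at 4.26, 6.99, 4.08 and 7.19 CPM under saline and at 2.94, 5.16, 5.19 and 9.76 CPM under AngII (0.04, SE 0.35, and -0.35 without KO AngII replicate 4). That KO difference was -0.078 without the library labelled KO saline replicate 1.

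In KO aortae the members' median AngII difference was smaller than in WT and no member was called by edgeR, where 0.0501% of all genes were called. The median log2 fold change was 0.26, with 30 of 38 members positive, against 0.02 over all genes. Unadjusted p was under 0.05 for Mcm6, Pole and Dnmt1, which were higher, and for Pola2, which was lower, a share of 4 in 38 against 19.2% of all genes. DESeq2 called 0 members and limma voom called Pola2 as lower. Cdc6 and Mcm6 alone kept every AngII library above every saline library, as 4.25% of all genes did. Without KO AngII replicate 4 the median was 0.12, and without that library and the library labelled KO saline replicate 1 it was 0.10. It was 0.27 without KO saline replicate 3 and 0.24 without KO AngII replicate 3. The role medians were 0.19 for licensing, 0.22 for firing, 0.17 for polymerases, 0.40 for deoxynucleotide supply, 0.58 for chromatin and 0.40 for entry into S phase. Mitochondrial reads, given for scale, made up 27% to 32.8% of KO saline and 10.1% to 24.3% of KO AngII libraries, and their part in the KO values was not tested.

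**Figure D3:**
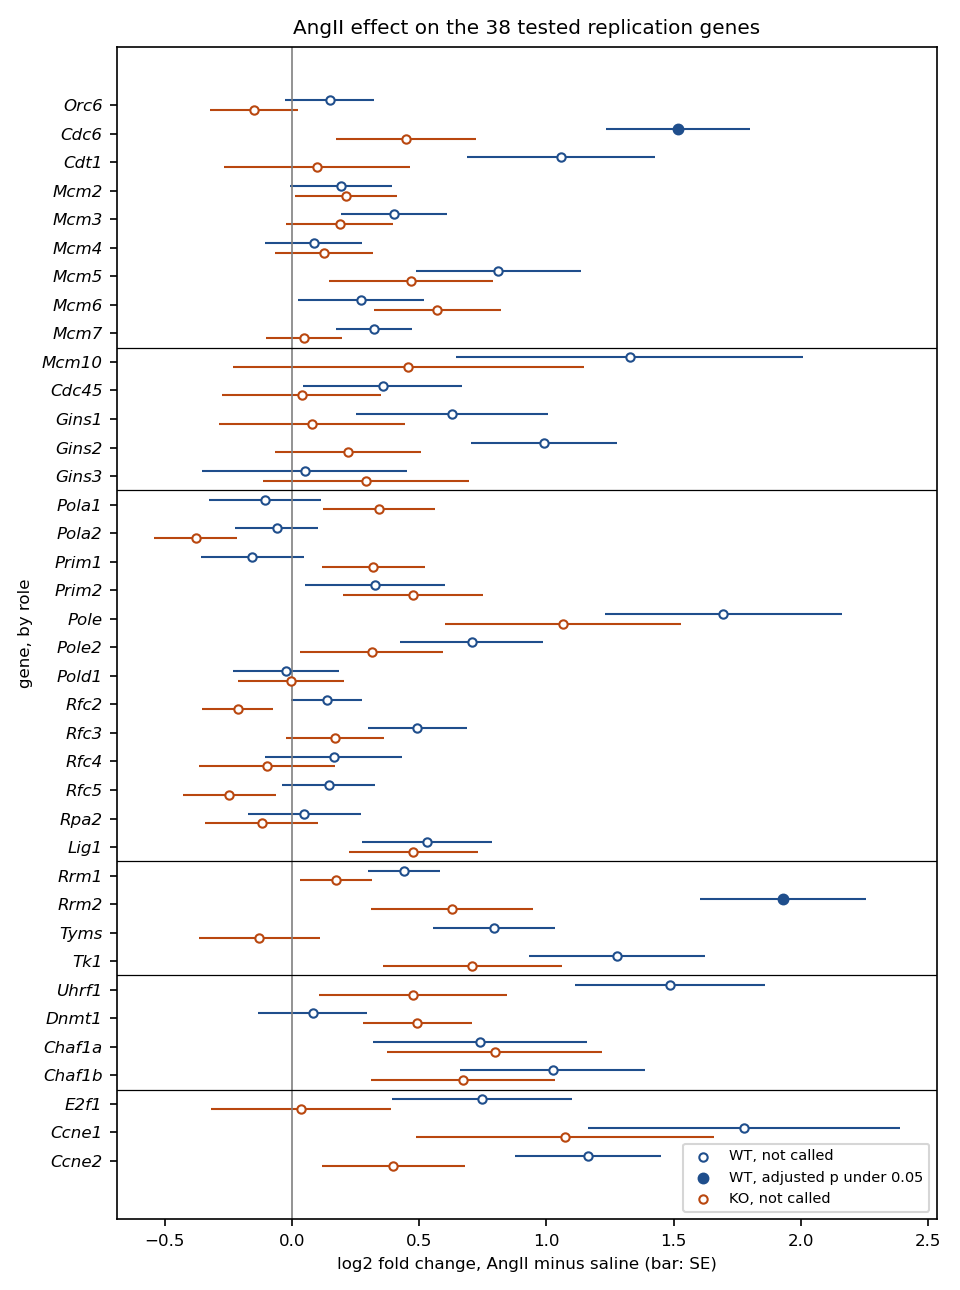
Log2 fold change of AngII against saline for 38 genes in WT (blue) and KO (orange), with bars for the SE and filled points for an adjusted p under 0.05. Cdc6 at 1.52 and Rrm2 at 1.93 in WT are the filled points, and all KO points are open, from -0.38 (Pola2) to 1.07 (Ccne1).

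The AngII effect averaged over WT and KO used all 16 libraries and had the smallest error. It shares its libraries with the comparisons within each genotype and is not a separate observation. Cdc6 (0.98, SE 0.20, edgeR adjusted p = 0.0262) and Rrm2 (1.28, SE 0.23, adjusted p = 0.0171) were called higher, as were 0.857% of all genes, and no member was called lower. At an unadjusted p under 0.05, 17 members were higher and 0 lower, against 9.18% of all genes higher. The median was 0.34, with 32 of 38 positive. After these came Pole (1.38, adjusted p = 0.0617), Tk1 (0.99, 0.0728) and Ccne2 (0.78, 0.0842). The Rrm2 call was lost without WT AngII replicate 4 (adjusted p = 0.0502). The Cdc6 call was lost without WT saline replicate 1 (0.0689) or 4 (0.0653), WT AngII replicate 3 (0.0788) or 4 (0.0760), KO saline replicate 3 (0.0622) or 4 (0.0672), or KO AngII replicate 2 (0.0616), with no filter on low counts (0.0757), and with KO AngII replicate 4 and the library labelled KO saline replicate 1 both left out (0.0568). Called members numbered 4 without KO saline replicate 2, where Uhrf1 and Pole joined, and 4 without KO AngII replicate 1, where Pole and Tk1 joined. DESeq2 called 8 members, which were these 2 and Uhrf1, Pole, Tk1, Ccne1, Ccne2 and Chaf1b, and limma voom called 5.

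Between genotypes under saline, Pola2 was the member called. POLA2 is the regulatory subunit of the polymerase that extends RNA primers. Pola2 was at 8.68, 10.6, 8.96 and 9.88 CPM in WT saline and at 12.6, 19.9, 15.0 and 14.9 CPM in KO saline. Every KO library was above every WT library, with means of 9.54 ± 0.893 and 15.6 ± 3.07 CPM (SD, n = 4). The log2 difference was 0.71 (SE 0.16, edgeR quasi-likelihood adjusted p = 0.0328), where 3.01% of all genes were called, and 0.76 without the library labelled KO saline replicate 1 (adjusted p = 0.0360). The call was lost without WT saline replicate 1 (0.115), 3 (0.0970) or 4 (0.0895) and without KO saline replicate 2 (0.0894), 3 (0.0677) or 4 (0.0593), and also with no filter on low counts (0.0820) and with these groups fitted alone (0.0786). Under AngII, Pola2 was at 8.51, 8.55, 8.69 and 10.8 CPM in WT and at 12.2, 11.7, 9.90 and 14.2 CPM in KO, with overlap (0.39, SE 0.16, edgeR adjusted p = 0.211). Cdc6, Mcm7, Gins1, Rfc3 and Ccne2 were also higher and Mcm6 lower in KO saline at an unadjusted p under 0.05, in all 7 of 38 members against 21.8% of all genes. Mcm6 stood at 43.5, 20.8, 44.5 and 49.6 CPM in WT saline and at 19.5, 28.7, 26.4 and 29.8 CPM in KO saline (-0.60, SE 0.25, edgeR adjusted p = 0.184). The libraries labelled KO saline were above all WT saline libraries for Cdc6, Mcm7, Pola2 and Rfc3, against 5.17% of all genes. Mitochondrial reads also separated these groups, at 8.33% to 17.7% in WT saline, and their part was not tested.

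Under AngII no member was called between genotypes, where 2.03% of all genes were, and the median was -0.09. It turned to 0.07 without WT AngII replicate 3. The 4 deoxynucleotide genes were all lower in KO, at -0.40 for Rrm1, -0.82 for Rrm2, -0.52 for Tyms and -1.22 for Tk1, each with an unadjusted p under 0.05. Without WT AngII replicate 3 the Tyms difference was -0.304. Together with Pola2, which was higher, they made 5 of 38 members, against 17.9% of all genes. Tk1 came closest, at 9.77 ± 4.41 CPM in WT AngII and 4.20 ± 1.79 CPM in KO AngII (SE 0.35, edgeR adjusted p = 0.0722). Limma voom called 0 members. Tk1 was called by DESeq2 (adjusted p = 0.0140), and by edgeR without KO AngII replicate 4 (0.0361), where its groups no longer overlapped in range. Rrm1 had an edgeR adjusted p of 0.133. No member had groups without overlap, where 9.35% of all genes did.

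The genotype by AngII interaction, which tests whether the AngII difference itself differs, called 0 members by edgeR, DESeq2 or limma voom. EdgeR called 0.0188% of all genes. Unadjusted p was under 0.05 for Cdc6 (-1.07, SE 0.39, edgeR adjusted p = 0.411), Rrm2 (-1.30, SE 0.45, adjusted p = 0.406) and Tyms (-0.92, SE 0.34, adjusted p = 0.411), 3 of 38 members against 11.2% of all genes. The median interaction was -0.32, with 28 of 38 members below 0, against 0.01 over all genes. A smaller response in KO was thus not shown for any member, although Cdc6 and Rrm2 were called in WT and not in KO.

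Other genes of the same pathways were read from lists chosen by known role, with earlier results of these data known. Few of them were called under AngII in WT. EdgeR called 0 of 16 tested licensing and firing genes, 0 of 15 nucleotide supply genes and 0 of 10 chromatin assembly genes. Of all genes, 0.438% were called higher. At an unadjusted p under 0.05, 1, 2 and 3 genes of these lists were higher, against 5.58% of all genes. Of 17 fork genes the call was Clspn, which links the fork to the checkpoint, at 0.575 ± 0.184 CPM under WT saline and 3.05 ± 1.47 CPM in WT AngII (2.38, SE 0.45, edgeR adjusted p = 0.0341). Pcna, the sliding clamp, was at 23.9 ± 1.62 and 27 ± 2.94 CPM in WT and at 27.4 ± 9.14 and 16.6 ± 2.22 CPM in KO. Its KO mean was thus lower under AngII, while the members' KO median log2 fold change was 0.26. EdgeR called 0 of these 17 fork genes under AngII in KO. Of 27 regulators of G1 and S phase the call was Ccna2, the S-phase cyclin, at 1.61 ± 0.570 and 13.1 ± 5.59 CPM (3.02, SE 0.49, edgeR adjusted p = 0.0177). Among checkpoint and repair genes, Brca1, which acts at stalled and broken forks, was called (2.30, SE 0.43, edgeR adjusted p = 0.0341). Each of these 3 calls was lost without WT saline replicate 1, 3 or 4 (adjusted p 0.0772 to 0.150) and without WT AngII replicate 3 (0.0685 to 0.138) or 4 (0.0822 to 0.121). Clspn and Brca1 were also lost when WT saline replicate 2 or else replicate 2 of KO AngII was left out, and Brca1 without KO saline replicate 3 (0.0511). Both were also lost with the WT groups fitted alone (0.0743), and Brca1 with no filter on low counts (0.0550). In the average effect the called genes also included Dbf4, the activator of the firing kinase (1.35, SE 0.27, edgeR adjusted p = 0.0244), Hells, a chromatin remodeller (1.11, SE 0.24, adjusted p = 0.0425), and E2f3, an activating E2F (0.61, SE 0.11, adjusted p = 0.0214). All 3 were lost without WT AngII replicate 3 (0.0572 to 0.111) or 4 (0.0580 to 0.106), and without WT saline replicate 3, KO saline replicate 3 or KO saline replicate 4. Dbf4 and Hells were also lost without WT saline replicate 1 or 4 or replicate 2 of KO AngII, and Hells further without the library labelled KO saline replicate 1 (0.0645), KO saline replicate 2, or KO AngII replicate 3 or 4. Hells was lost with no filter (0.0898), and Dbf4 (0.0642) and Hells (0.0936) with KO AngII replicate 4 and the library labelled KO saline replicate 1 both left out. Cdkn1a, which encodes the CDK inhibitor p21, was not called under AngII in WT (0.20, SE 0.29) but KO was below WT under saline (-1.20, SE 0.30, edgeR adjusted p = 0.0432) and under AngII (-1.44, SE 0.30, adjusted p = 0.0250). The saline call was lost when any of 10 libraries was left out: WT saline replicate 1 or 3, WT AngII replicates 1 to 3, any labelled KO saline (0.0908 without replicate 1), or KO AngII replicate 2. The AngII call was lost without any of 4, which were WT AngII replicate 3 or 4 and KO AngII replicate 2 or 4. Both Cdkn1a calls were lost with the groups compared fitted alone (0.0693 under saline, 0.0652 under AngII) and with KO AngII replicate 4 and the library labelled KO saline replicate 1 both left out (0.0838 and 0.0639).

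Mitosis genes had larger differences than replication genes in the same libraries. Of 20 mitosis and spindle genes, all had WT AngII libraries above all WT saline libraries, against 3.67% of all genes. In WT, 15 were called higher, against 0.438% of all genes. Their median log2 fold change was 2.86 against 0.47 for the replication genes. Top2a, the topoisomerase that untangles copied chromosomes, was at 3.58 ± 0.731 CPM under WT saline and 28.4 ± 8.96 CPM in WT AngII (2.99, SE 0.43, edgeR adjusted p = 0.00981). Mki67, a marker of cycling cells, was at 5.29 ± 1.52 and 33.6 ± 12.6 CPM (2.67, SE 0.40, adjusted p = 0.0105). Prc1, which bundles the spindle midzone, was at 1.68 ± 0.688 and 13.5 ± 3.38 CPM (3.01, SE 0.39, adjusted p = 0.00981). The calls fell to 1 without WT saline replicate 1 or 4, to 2 without WT saline replicate 3, to 8 without WT saline replicate 2 and to 5 without WT AngII replicate 3 or 4. In KO the median was 1.13 and 0 were called by edgeR, while DESeq2 called 5 and limma voom 0. At an unadjusted p under 0.05, 11 were higher in KO AngII, against 11.8% of all genes. In the average effect 17 were called higher, against 0.857% of all genes. Whether replication and mitosis genes differ in their response was not tested.

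**Figure D4:**
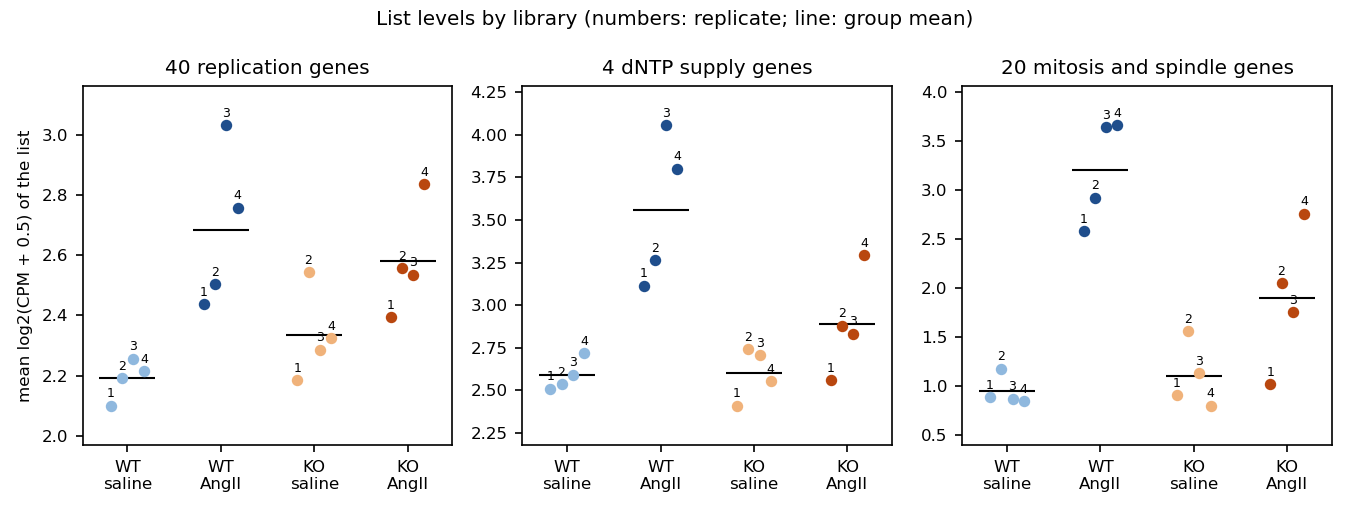
Mean log2(CPM + 0.5) per library for the 40 replication genes, the 4 deoxynucleotide supply genes and 20 mitosis and spindle genes, with replicate numbers beside the points and a line at each group mean. WT AngII replicates 3 and 4 are high on all panels, and KO AngII replicate 4 is the highest of its group.

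Markers of some other cell types were high, and of others low, in the 2 WT AngII libraries highest in replication genes. All 8 macrophage and monocyte markers were detected, and they summed to 209 to 442 CPM in WT saline and to 393, 262, 605 and 886 CPM in WT AngII replicates 1 to 4. The 442 CPM came from WT saline replicate 4, above WT AngII replicates 1 and 2, although its replication gene mean of 2.21 was a saline one. Within WT AngII, replicates 3 and 4, highest for replication genes, were also highest here. They were highest for the 6 fibroblast markers too, at 9083 and 15604 CPM against 5444 to 6146 CPM in replicates 1 and 2. The same 2 libraries were the lowest of WT AngII for other lists. Endothelial markers summed to 585 and 629 CPM in replicates 3 and 4 against 805 and 1136 CPM in replicates 1 and 2, and lymphocyte markers to 4.74 and 1.72 CPM against 13 and 15.6 CPM. White adipocyte markers summed to 2212 and 3423 CPM against 5493 and 5477 CPM, and brown adipocyte markers to 870.4 and 1233 CPM against 2032 and 2674 CPM. Smooth muscle markers split the 2 libraries, at 17139 CPM in replicate 3 and 11632 CPM in replicate 4, against 12374 and 12022 CPM. Mitochondrial reads made up 10.7% and 9.56% in replicates 3 and 4 against 13.7% and 16.3%, and their part was not tested. In KO AngII the macrophage markers summed to 193 to 327 CPM, within the range of WT saline or just below it. KO AngII replicate 4, highest of its group for replication genes, had 278 CPM. In whole-vessel RNA, fewer or more cells of a type and less or more RNA per cell cannot be told apart, and the part of these cell types in the replication gene values was not tested.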

How the data were processed

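Suprarenal aortae were profiled by RNA-seq in 16 libraries. The deposited values were raw counts per gene. The authors used HISAT2 2.0.5, featureCounts 1.5.0-p3, DESeq2 1.20.0 and the build GRCm39, per the submitters' processing notes, which give no order or role. The sources used here do not give the annotation release or strand setting. Genes were filtered with edgeR's filterByExpr, libraries scaled by TMM, and 1 mean per group fitted over all 16 libraries with edgeR 4.0.16 (glmQLFit and glmQLFTest, R 4.3.3), with Benjamini-Hochberg adjustment over 15984 genes and calls at an adjusted p under 0.05. The fit was tested on simulated data. DESeq2 1.42.0, limma 3.58.1 voom, RLE scaling, other filters, a replicate block and each library left out were the alternatives. The labels call replicates biological without naming animals, so p-values measure the spread between these samples. Libraries held 13284804 to 21643548 counts, and 15 members have an exon that overlaps another gene. The members and the gene lists were chosen with earlier results of these data known. Values in every library are printed, for each role, for the 2 members with the lowest p in the average AngII effect and the member with the highest, and for Pola2, and ring subunits by group. Of each other list, up to 2 called genes with the lowest p in that effect are named, and Pcna, Ccna2, Cdkn1a, Mki67 and Top2a. 1 result is not reported here.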

Additional observations from a re-analysis of the deposited data

Results flagged for a closer look

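For 6 of 104 groups of 4 libraries, 1 library lay apart from the other 3 beyond Dixon's 95% limit on gap over range. Each was a named member, or the mean log2 level or summed CPM of the 40 members, in a group. Chance would flag about 5.2 of 104. Orc6 was at 12.4 CPM in KO AngII replicate 4 against 13.9 to 14.2 CPM in the others. Uhrf1 was at 4.44 CPM in WT saline replicate 2 against 1.97 to 2.30 CPM. Dnmt1 was at 26.1 CPM in KO AngII replicate 1 against 32.5 to 32.8 CPM. Ccne1 was at 6.96 CPM in KO AngII replicate 4 against 1.12 to 1.48 CPM. Mcm4 was at 17.4 CPM in KO AngII replicate 3 against 15.2 to 15.5 CPM. Pola2 was at 10.8 CPM in WT AngII replicate 4 against 8.51 to 8.69 CPM.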

How the results depend on the processing

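The members' median log2 fold change kept its sign in all 6 comparisons under each other scaling, filter, tool, block and choice of groups tried. With each library left out it turned only for KO against WT under AngII, without WT AngII replicate 3. The counts of calls did not stay level. Reasons for the differences were not tested. For AngII against saline in WT, members called numbered 1 with no filter, 7 by DESeq2, 4 by limma voom, 1 with the WT groups alone and 0 to 2 with each library left out. All genes called numbered 280 by DESeq2, 254 by limma voom, 128 without KO AngII replicate 4 plus the library labelled KO saline replicate 1 (both libraries) and 3 to 115 with each left out. In KO, limma voom called 1 member, and all genes called were 734 by DESeq2, 561 by limma voom, 4 with the KO groups alone and 6 to 32 with each left out. Between genotypes under saline, members called were 0 with no filter, 2 by DESeq2, 4 by limma voom, 0 with these groups alone and 0 to 3 with each left out, and all genes 1362, 3197, 203 (DESeq2, limma voom, these groups alone) and 105 to 1744. Under AngII they were 1 by DESeq2, 1 without both libraries and 0 to 1 with each left out, all genes 1230, 580 and 102 in the same order and 100 to 845, and the member median ran from -0.21 to 0.066. For the interaction, all genes called were 97 by DESeq2, 173 by limma voom and 2 to 12 with each left out. For the average effect, members called were 1 with no filter, 8 by DESeq2, 5 by limma voom, 1 without both libraries and 0 to 4 with each left out, and all genes 666, 549 (DESeq2, limma voom) and 42 to 252.

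The sign turned for single genes in these cases. By limma voom, Gins3 was at -0.20 in WT, -0.14 in KO and -0.17 on average, Orc6 at 0.036 in KO and 0.12 on average, and E2f1 at -0.17 in KO. Without both libraries, the KO values were 0.086 for Orc6, -0.016 for Gins2, -0.047 for Gins3 and -0.45 for E2f1, and the average was 0.12 for Orc6. Pold1 in KO was at 0.0076 with RLE scaling, 0.030 with no filter and 0.0074 by DESeq2, and Orc6 on average was at 0.010 with no filter. With each library left out, WT values ran from -0.030 to 0.42 for Cdkn1a, -0.014 to 0.20 for Dnmt1, -0.24 to 0.27 for Gins3 and -0.12 to 0.053 for Pold1. KO values ran from -0.012 to 1.63 for Ccne1, -0.35 to 0.25 for E2f1, -0.27 to 0.053 for Orc6 and -0.16 to 0.12 for Pold1, and average values from -0.061 to 0.10 for Orc6 and -0.090 to 0.047 for Pold1.

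Whether replicate numbers mark pairs was not settled. Deviations of same-numbered libraries correlated from -0.46 to 0.47. Among KO AngII libraries, KO saline replicate 1 correlated best with replicate 1 (0.47). Among WT AngII libraries, WT saline replicate 2 correlated best with replicate 2 (0.44), while WT saline replicate 1 did not correlate best with its own number. Deviations from a mean of 4 libraries depend on each other, so this check cannot decide the question. With the replicate number as a block, the calls of Clspn in WT (adjusted p = 0.0510) and Cdkn1a between genotypes under saline (0.0651) were lost, 1 member (Rrm2) was called in WT and 2 (Rrm2 and Tk1) in the average effect. All genes called under the block were 42 in WT, 14 in KO and 166 between genotypes under AngII. Gins3 in WT was then at -0.022, E2f1 in KO at -0.029 and Orc6 on average at 0.0051. Depth limits Orc1, Fen1 and Mcm10, with at most 14, 15 and 40 reads per library.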
